A study of Mus musculus with 18 samples.

Results

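The genes described here are 10 G protein-coupled receptor genes whose products sense complement fragments (C5ar1, C3ar1), formyl peptides (Fpr1, Fpr2), extracellular nucleotides and adenosine (P2ry6, P2ry2, Adora2b), and fatty acids and other metabolites (Ffar2, Gpr84, Gpr35). They were taken by symbol from a count table of 55385 genes, and all 10 had an Ensembl identifier on GRCm38 and passed the count filter that left 14979 genes for testing. RNA was sequenced from bone marrow-derived macrophages grown from female C57BL/6J mice aged 12 weeks, in medium with 20% L929 culture supernatant, a source of macrophage growth factor, up to day 7. The 6 groups of 3 libraries each were Veh M[0], HC3 M[0], RSM M[0], Veh M[IL-4], HC3 M[IL-4] and RSM M[IL-4]. Veh was 0.1% DMSO, HC3 was an inhibitor of choline uptake at 250 µM and RSM was RSM-932a, an inhibitor of choline kinase, at 5 µM. Each was given for 24 h before a further 24 h without cytokine (M[0], naïve) or, for M[IL-4], with IL-4 at 20 ng/mL. No gene was deleted in any group, all cells had the same growth conditions, and the libraries of a group came from 3 individual mice. The inhibitors were given at different doses, and 1 dose of each was used.

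Complement activation releases the small fragments C3a and C5a, which are sensed by C3ar1 and C5ar1, while formyl peptides shed by bacteria and by damaged mitochondria are sensed by Fpr1 and Fpr2. Nucleotides that leak from stressed cells bind P2Y receptors, and their breakdown to adenosine engages Adora2b. Ffar2 is a receptor for short-chain fatty acids such as acetate and Gpr84 one for medium-chain fatty acids, and Gpr35 is an orphan-type receptor proposed to bind kynurenic acid and related metabolites. Most of these receptors couple to inhibitory G proteins or to phospholipase C and steer migration, phagocytosis and cytokine release of myeloid cells.

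The total count per library was between 17457796 and 19522255, so that 3 counts corresponded to between 0.153 and 0.176 CPM, the usual depth-scaled unit of counts, and no library stood apart in depth. Of 10 macrophage markers, all were detected, and their summed level ranged from 20890 to 21890 CPM in Veh M[0], 9007 to 10030 CPM in HC3 M[0] and 16063 to 17433 CPM in RSM M[0], with 8 of 10 called lower with HC3 in M[0] and 4 of 10 with RSM. In M[IL-4] the same sum was 12330 to 12642 CPM with Veh, 7887 to 9011 CPM with HC3 and 11233 to 13519 CPM with RSM. There 3 of 10 were called lower with HC3 and 1 of 10 with RSM. Lyz2 was the largest part of the sum, with a mean of 11633, 5071 and 11660 CPM in Veh, HC3 and RSM M[0]. In M[IL-4] its means were 4531, 2870 and 5903 CPM in the same order. With RSM in M[0], Csf1r went from 3967 to 1720 CPM and Adgre1 from 2837 to 1266 CPM, and no marker was called higher. Markers of stromal cells, 8 genes of which 7 were tested, summed to 570 to 962 CPM in Veh M[0], 1372 to 1835 CPM in HC3 M[0] and 1095 to 1544 CPM in RSM M[0]. Their sum in M[IL-4] was 315 to 720 CPM with Veh, 628 to 1160 CPM with HC3 and 585 to 1120 CPM with RSM. The collagen genes Col1a1 and Col1a2 were the largest parts of these sums. The median log2 fold change of the 7 tested genes was 0.91 with HC3 and 0.66 with RSM in M[0]. In M[IL-4] it was 0.63 and 0.55. The genes did not all rise, as Dcn and Pdgfra lay below 0 with both inhibitors in M[0]. Of the 7 tested, RSM in M[0] gave 2 called higher and 1 lower, Dcn (log2 fold change -1.51). HC3 there gave 3 higher and 0 lower. In M[IL-4] each inhibitor gave 1 called higher, and Dcn was again called lower for RSM (-1.55). The part of these marker shifts in the results below was not tested. In RNA from bulk cultures, fewer cells of a type and less RNA per cell cannot be told apart.

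Per kb of exon, 3 receptors stood far above the others in every group. In Veh M[0] the mean level was 457 CPM per kb for C3ar1, 299 CPM per kb for C5ar1 and 83.4 CPM per kb for P2ry6, followed by P2ry2 at 4.42 CPM per kb and Adora2b at 1.44 CPM per kb. Gpr84, Fpr2, Fpr1 and Gpr35 came next, between 0.895 and 0.506 CPM per kb, and each of the first 3 overlapped its neighbour in this order over the 3 libraries. Ffar2 was lowest, at 0.0269 CPM per kb. C3ar1, C5ar1 and P2ry6 kept these ranks in all 6 groups with no overlap between neighbours, whereas Ffar2 moved from rank 10 to rank 5 in HC3 M[0] and from rank 9 to rank 4 in HC3 M[IL-4], where its mean was 9.41 CPM per kb.

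**Figure D1:**
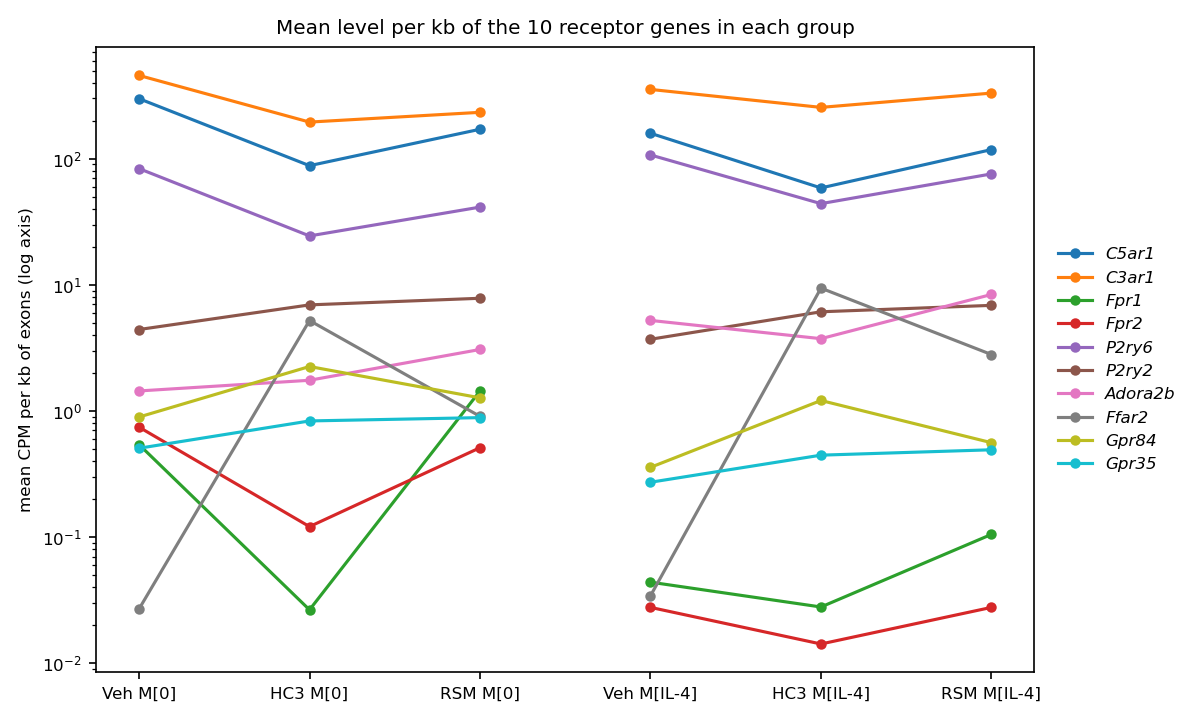
Mean level of each receptor gene per kb of exon, in CPM per kb on a log axis, in the 6 groups; each point is the mean of 3 libraries and lines join the groups of 1 polarization. C3ar1, C5ar1 and P2ry6 lie at 24.4 CPM per kb or above in every group, and Ffar2 climbs from 0.0269 CPM per kb in Veh M[0] to 5.21 CPM per kb in HC3 M[0].

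To ask how blocking choline uptake or choline phosphorylation altered these receptors, each inhibitor was compared with Veh at the same polarization, and a call required a false discovery rate (FDR) below 0.05 together with a log2 fold change of size 1 or more. With HC3 in M[0], 5 members fell and 2 rose, where 6.11% of all tested genes were called lower and 5.93% higher, and the median log2 fold change was -0.47 over the members and 0.02 over all genes. With RSM in M[0], 1 member fell and 3 rose, against 6.51% lower and 5.05% higher among all tested genes, with medians of 0.65 and 0.01. In M[IL-4], HC3 lowered 2 members and raised 2, where the shares over all genes were 5.53% and 4.72%. RSM in M[IL-4] raised 1 member, Ffar2, against 5.05% of all genes, and lowered none, against 6.00%. In that comparison 2 members lay lower in edgeR at an unadjusted p under 0.05 and 2 at an FDR under 0.05, and DESeq2 also called 1 member in all. The comparisons at 1 polarization share their Veh libraries, so likeness between HC3 and RSM is not independent. Ffar2 had at most 3 counts in any Veh library, so it passed the count filter through inhibitor libraries alone. Its calls as higher are thus not independent of the filter that admitted it. Fpr1 and Fpr2 passed through M[0] libraries alone and were too low in M[IL-4] for a fall there to be detected. Their calls as lower with IL-4, given below, are likewise not independent of the filter.

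**Figure D2:**
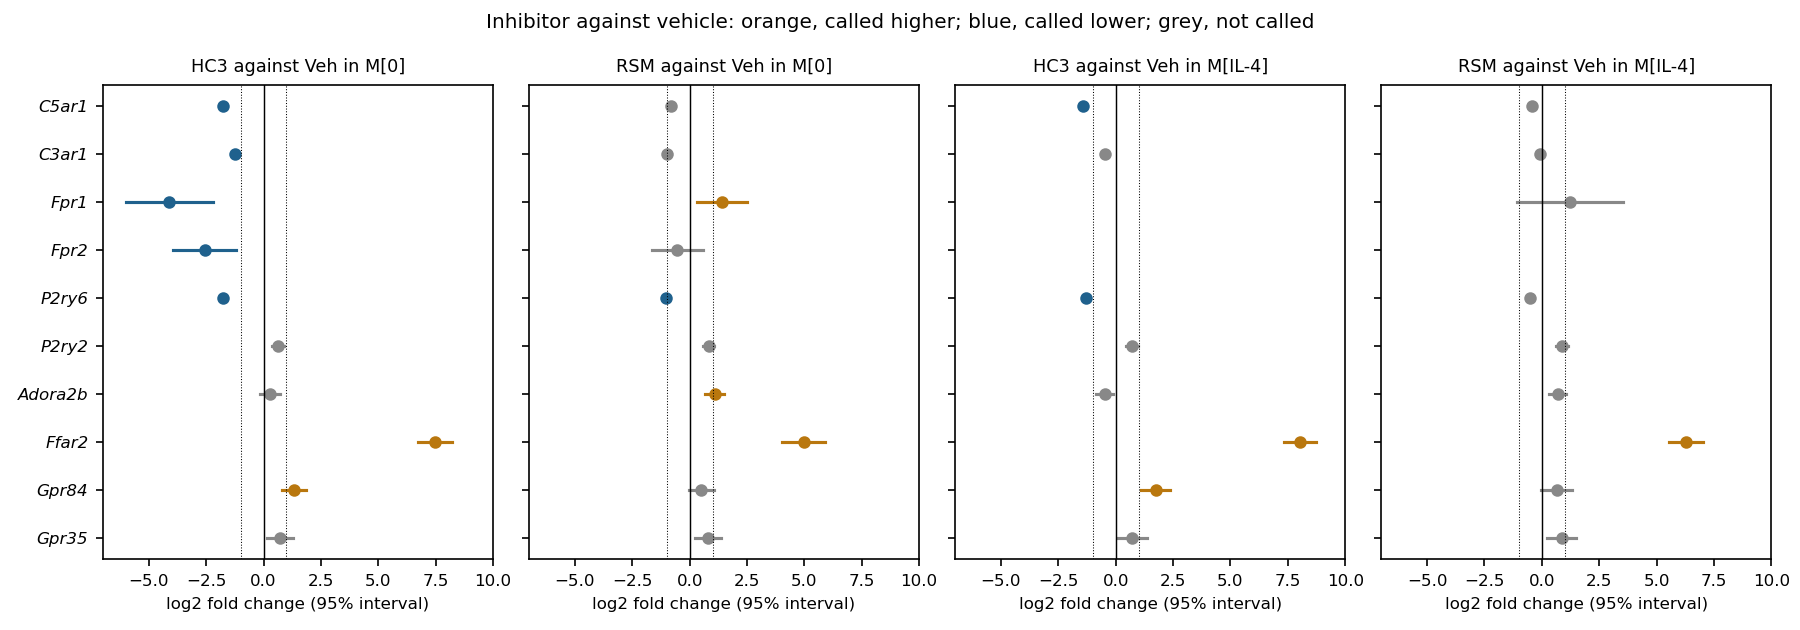
Log2 fold change of each receptor gene for inhibitor against Veh, with its 95% interval, in 4 comparisons; dotted lines mark -1 and 1, and genes at 3 counts or fewer in both groups are left out. Ffar2 lies to the right in all 4 panels, between 4.96 and 8.04, while C5ar1 and P2ry6 lie to the left of 0 in all 4.

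The complement receptors fell with HC3, and C5ar1 was the more affected. C5ar1, the main receptor for C5a, is at chr7:16246743-16259540 on the minus strand (GRCm38), and C3ar1, the C3a receptor, is at chr6:122847138-122856161, also on the minus strand. The 250 bases before their transcription starts are shown because both transcripts are abundant and fell together with HC3. They are RefSeq sequences of build GRCm38.p6, written 5′ to 3′ on the minus strand, from chr7:16259339-16259588 and chr6:122856158-122856407, and capitals mark a match to one of 5 motifs searched on both strands.
C5ar1: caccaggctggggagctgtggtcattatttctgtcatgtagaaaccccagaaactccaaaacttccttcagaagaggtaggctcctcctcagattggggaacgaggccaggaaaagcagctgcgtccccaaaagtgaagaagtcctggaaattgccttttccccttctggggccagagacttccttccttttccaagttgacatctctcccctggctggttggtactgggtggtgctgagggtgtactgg
C3ar1: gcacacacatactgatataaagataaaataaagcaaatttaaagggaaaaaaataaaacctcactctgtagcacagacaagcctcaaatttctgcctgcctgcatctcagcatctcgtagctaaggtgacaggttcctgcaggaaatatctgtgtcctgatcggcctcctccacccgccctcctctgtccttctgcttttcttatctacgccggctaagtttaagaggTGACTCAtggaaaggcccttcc
The motifs were AP-1 (TGACTCA or TGAGTCA), PU.1 (GAGGAAGT), an E-box (CACGTG), a CARE-like element (TGATGNAA) and NF-kB (GGGACTTTC or GGGAATTTC), none of which overlapped another in these windows. Searched from 250 bases before to 50 after the start, the C3ar1 window held 1 AP-1 match, 22 bases before the start, as did 5.2% of 32851 RefSeq promoter windows with at least 1 such match. The C5ar1 window held none of the 5. Starts are those of RefSeq, while the gene coordinates are those of GENCODE. The RefSeq start of C5ar1 lies inside its gene coordinates, so most of the C5ar1 bases shown lie within the annotated gene. PU.1 was matched in 3.2%, the CARE-like element in 3.97%, the E-box in 7.15% and NF-kB in 0.612% of all windows. A match is a description of the letters and no evidence of binding.

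C5ar1 stood at 729, 779 and 794 CPM in the Veh M[0] libraries, at 231, 219 and 228 CPM in HC3 M[0] and at 467, 405 and 443 CPM in RSM M[0]. All 3 groups were apart, with RSM between HC3 and Veh. HC3 lowered it 3.39-fold (log2 fold change -1.76 ± 0.06 SE, FDR 8.09e-14). With RSM it was 1.75-fold lower (-0.81 ± 0.06, FDR 2.44e-09) and so uncalled. After IL-4 the values were 407, 409 and 411 CPM with Veh, 149, 155 and 148 CPM with HC3, and 318, 286 and 304 CPM with RSM. The groups were again apart in the same order. The fall with HC3 was 2.72-fold (-1.44 ± 0.06, FDR 1.49e-12), and with RSM the level was 1.35-fold lower (-0.44 ± 0.06, FDR 8.21e-06).

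C3ar1, the most abundant member, was at 2081, 1948 and 1871 CPM in Veh M[0], 883, 834 and 802 CPM in HC3 M[0] and 1013, 983 and 1014 CPM in RSM M[0]. Both inhibitor groups lay at less than all Veh libraries. It fell 2.34-fold with HC3 (log2 fold change -1.23 ± 0.07 SE, FDR 1.67e-10) and lay 1.96-fold lower with RSM (-0.97 ± 0.07, FDR 4.47e-09), which passed the fold threshold only without replicate 3 (-1.02). In M[IL-4] its level was 1471, 1643 and 1454 CPM with Veh, 1017, 1197 and 1083 CPM with HC3 and 1307, 1529 and 1442 CPM with RSM. Here the HC3 libraries lay below Veh while RSM overlapped it. The difference was 1.39-fold lower for HC3 (-0.47 ± 0.07, FDR 4.44e-05) and -0.10 ± 0.07 on the log2 scale for RSM (FDR 0.337, 95% interval -0.25 to 0.06).

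The second C5a receptor, C5ar2, which does not couple to G proteins and was singled out after its values were seen, had a mean of 23.9 CPM in Veh M[0], 9.82 CPM in HC3 M[0] and 11.0 CPM in RSM M[0]. It was called lower in all 4 inhibitor comparisons, with log2 fold changes in M[0] of -1.28 for HC3 and -1.12 for RSM, and in M[IL-4] of -1.27 and -1.08. The nearest patterns to C5ar1 over the 18 libraries, by Pearson correlation of log2 CPM among 11443 protein-coding genes, were Nfatc2 (r = 0.990) and Abca9 (r = 0.984). For C3ar1 they were Nsf (r = 0.961) and Adgre1 (r = 0.955), the gene of the macrophage marker F4/80. Libraries of 6 groups give these values, so they mostly record shared group means.

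**Figure D3:**
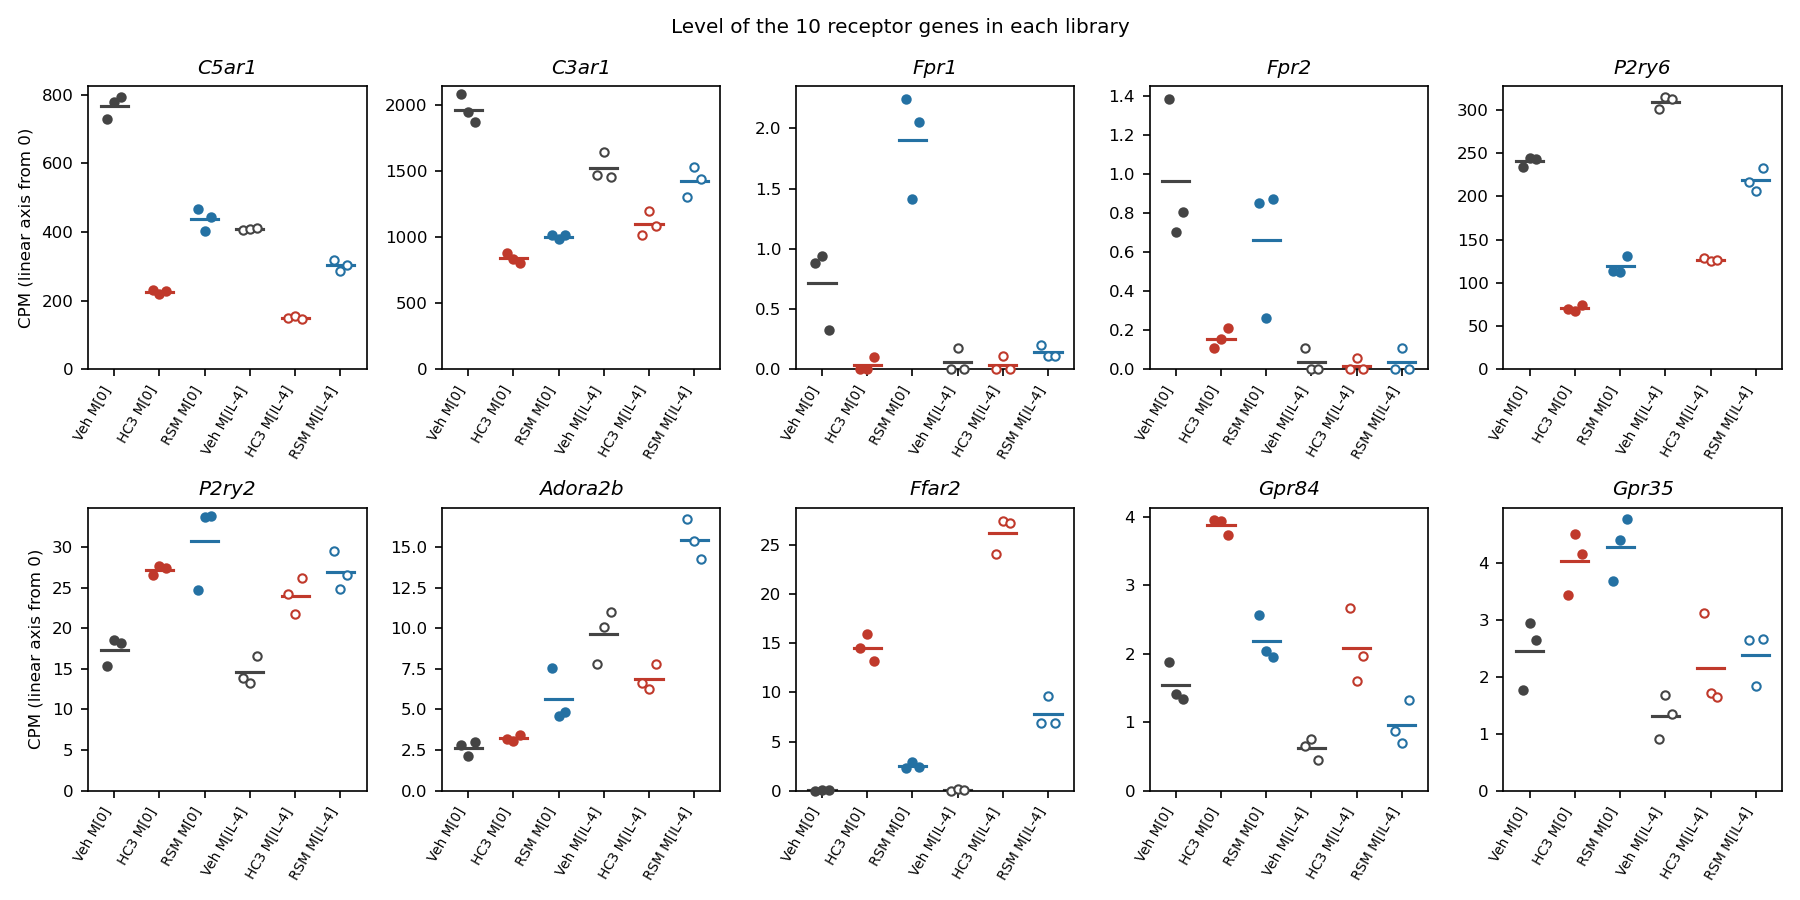
Level of each receptor gene in CPM (linear axes from 0) in the 18 libraries; filled points are M[0], open points M[IL-4], and bars are the means of 3 libraries. C5ar1, P2ry6 and C3ar1 lie below Veh with HC3 at both polarizations, and Ffar2 lies near 0 in all Veh libraries and between 13.2 and 27.4 CPM with HC3.

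The formyl peptide receptors were near the limit of detection, and both fell with HC3 in M[0]. Fpr1 (chr17:17876471-17883940, minus strand) and Fpr2 (chr17:17887824-17893952, plus strand) are neighbours 3883 bases apart, and 3.70% of the exon length of Fpr2 is shared with Fpr3, which had 0 counts in every library. Fpr1, the high-affinity receptor for formyl peptides, had 16, 16 and 6 counts in Veh M[0], 0, 0 and 2 counts in HC3 M[0] and 42, 27 and 40 counts in RSM M[0]. Each of these groups was apart from the others. HC3 libraries held 20.2-fold fewer Fpr1 counts at equal depth (95% counting interval 5.23 to 173, FDR 0.00116). RSM libraries held 2.69-fold more (95% counting interval 1.84 to 4), with a fitted log2 fold change of 1.41 ± 0.51 (SE) and an FDR of 0.0339. That call was lost without replicate 1 (FDR 0.123) and without replicate 3 (FDR 0.266). Counting intervals cover counting error only, and the fitted fold of a gene this low depends on the prior count.

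Fpr2, which also binds lipid and peptide ligands such as annexin A1, had 25, 12 and 15 counts in Veh M[0], 2, 3 and 4 counts in HC3 M[0] and 16, 5 and 17 counts in RSM M[0]. The HC3 libraries lay below all Veh libraries, and RSM overlapped Veh. Fpr2 counts were 6.16-fold fewer with HC3 at equal depth (95% counting interval 3.01 to 14.2, FDR 0.00342), a call lost without replicate 1 (FDR 0.0701). With RSM the fitted log2 difference was -0.54 ± 0.53 (FDR 0.444, 95% interval -1.64 to 0.56). In M[IL-4] Fpr1 summed to 3, 2 and 8 counts and Fpr2 to 2, 1 and 2 counts over the 3 libraries of Veh, HC3 and RSM. No effect of an inhibitor on either gene was detectable at that depth.

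Neutrophils are rich in Fpr1, Fpr2, C5ar1 and Ffar2 transcripts, so their markers were read beside these genes. Of 12 neutrophil markers, 4 passed the count filter and S100a9, Elane and Retnlg were at 0 counts in all 18 libraries, while Ly6g had 2 counts in all. The summed level of the 12 was 10.9 to 14.6 CPM in Veh M[0], 5.26 to 12.0 CPM in HC3 M[0] and 44.6 to 56.9 CPM in RSM M[0]. Most of it was Mmp8, a collagenase, with a mean of 11.6, 6.93 and 49.0 CPM in the same order, and S100a8 and Mmp8 were the 2 of 4 called higher with RSM. In M[IL-4] the sum was 17.2 to 21.4 CPM with Veh, 8.77 to 11.3 CPM with HC3 and 20.8 to 25.1 CPM with RSM. The sum was highest in RSM M[0] and mostly Mmp8. The part of neutrophils in the values of Fpr1, Fpr2, C5ar1 and Ffar2 was not tested. Markers of B cells and dendritic cells summed to at most 2.90 CPM in any library and those of T cells to at most 5.92 CPM. That T cell maximum was in Veh M[0], where Cd4 alone had a mean of 4.87 CPM. Mast cell and basophil markers reached 20.2 CPM in HC3 M[0] against at most 5.64 CPM in Veh M[0], with Mcpt4, Tpsb2 and Fcer1a at 0 counts throughout. Eosinophil markers, with Epx and Ear6 at 0 counts throughout, were at 49.9 to 61.5 CPM in Veh M[0] and at most 8.77 CPM in HC3 M[0] and 5.07 CPM in RSM M[0]. Ccr3 made up most of these sums, with a mean of 50.4, 4.97 and 3.58 CPM in the same order.

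P2ry6 fell with HC3 at both polarizations, while P2ry2 was never called and lay above Veh with either inhibitor. The genes are neighbours, 21918 bases apart on the minus strand of chromosome 7 (chr7:100937630-100974649 and chr7:100996568-101012866). P2ry6, the UDP receptor that drives engulfment in myeloid cells, was at 234, 245 and 244 CPM in Veh M[0], 69.9, 67.6 and 74.1 CPM in HC3 M[0] and 114, 112 and 131 CPM in RSM M[0]. The groups were apart, lowest with HC3. It fell 3.41-fold with HC3 (log2 fold change -1.77 ± 0.07 SE, FDR 1.86e-13) and 2.02-fold with RSM (-1.01 ± 0.06, FDR 3.04e-10). The RSM value lay just past the fold threshold and was -0.97 without replicate 2 and -0.96 when libraries were scaled by size alone. In M[IL-4] it was at 301, 316 and 313 CPM with Veh, 128, 126 and 127 CPM with HC3 and 217, 206 and 233 CPM with RSM. All 3 groups were apart. The fall with HC3 was 2.44-fold (-1.29 ± 0.06, FDR 1.66e-11), and the level with RSM was 1.42-fold lower (-0.50 ± 0.06, FDR 2.97e-06). Genes nearest in pattern were Ap1b1 (r = 0.988) and Nrros (r = 0.984).

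P2ry2, the receptor for ATP and UTP that acts in find-me signalling, was at 15.4, 18.5 and 18.2 CPM in Veh M[0], 26.5, 27.7 and 27.4 CPM in HC3 M[0] and 24.6, 33.7 and 33.8 CPM in RSM M[0]. Both inhibitor groups lay above all Veh libraries. The difference was 1.57-fold for HC3 (log2 fold change 0.65 ± 0.12 SE, FDR 0.000286) and 1.77-fold for RSM (0.82 ± 0.12, FDR 2.32e-05), neither large enough to be called. After IL-4 the means were 14.6 ± 1.74 CPM (SD, n = 3) with Veh, 24.0 ± 2.24 CPM with HC3 and 27.0 ± 2.37 CPM with RSM, again without overlap with Veh. The log2 fold changes were 0.72 ± 0.12 (FDR 0.000134) and 0.89 ± 0.12 (FDR 1.18e-05), and the RSM value reached 1.00 without replicate 3. Its 2 RefSeq promoter windows overlap and hold the same E-box site, 37 bases after the start of one and 18 bases before that of the other. Both starts lie inside the gene coordinates. RefSeq windows were found for 9 of the 10 members, all but P2ry6.

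Adora2b (chr11:62248984-62266453, plus strand), the low-affinity adenosine receptor that raises cAMP, was called higher with RSM in M[0] and not with HC3. In Veh M[0] it was at 2.82, 2.11 and 3.01 CPM, in HC3 M[0] at 3.21, 3.07 and 3.42 CPM and in RSM M[0] at 7.58, 4.60 and 4.83 CPM. RSM raised it 2.13-fold (log2 fold change 1.09 ± 0.20 SE, FDR 0.000254), although replicate 1 was well above the others and the value without it was 0.86. The HC3 difference was 0.28 ± 0.21 (FDR 0.301, 95% interval -0.16 to 0.73). In M[IL-4] its values were 7.81, 10.1 and 11.0 CPM with Veh, 6.62, 6.25 and 7.83 CPM with HC3 and 16.7, 15.4 and 14.3 CPM with RSM. RSM lay above all Veh libraries and HC3 overlapped them. The log2 fold change was 0.68 ± 0.17 (FDR 0.00393) for RSM and -0.48 ± 0.18 (FDR 0.0426) for HC3, the latter with FDRs up to 0.192 over 10 alternatives. Its nearest patterns were those of Tfrc (r = 0.960), the transferrin receptor, and Gda (r = 0.949), guanine deaminase.

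Ffar2 had the largest change of the 10 genes in each of the 4 inhibitor comparisons, from near absence. The gene (chr7:30818348-30823775, minus strand) is shown with Gpr84 (chr15:103308235-103310612, minus strand), the other fatty acid receptor that rose with HC3, by the 250 bases before the start at chr7:30823776-30824025 and chr15:103310439-103310688, both 5′ to 3′ on the minus strand of GRCm38.p6 from RefSeq, with motif matches in capitals.
Ffar2: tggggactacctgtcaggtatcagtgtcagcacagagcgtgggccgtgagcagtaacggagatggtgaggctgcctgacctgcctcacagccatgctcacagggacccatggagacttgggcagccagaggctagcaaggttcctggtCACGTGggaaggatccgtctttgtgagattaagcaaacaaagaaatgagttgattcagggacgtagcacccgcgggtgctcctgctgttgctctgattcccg
Gpr84: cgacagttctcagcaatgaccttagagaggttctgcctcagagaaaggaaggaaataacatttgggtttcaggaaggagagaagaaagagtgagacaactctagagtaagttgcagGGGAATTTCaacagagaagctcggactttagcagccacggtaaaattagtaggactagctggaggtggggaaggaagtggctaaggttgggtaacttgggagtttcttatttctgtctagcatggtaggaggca
Ffar2 has 4 RefSeq windows. The one shown, the farthest upstream, holds an E-box match 102 bases before the start, and the other 3 hold none of the motifs. The Gpr84 window holds an NF-kB match 134 bases before the RefSeq start. That start lies inside the gene coordinates given for Gpr84, so the match and most of the bases shown lie within the annotated gene.

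Ffar2 had 0, 2 and 2 counts in the Veh M[0] libraries, 271, 311 and 250 counts in HC3 M[0] and 43, 55 and 47 counts in RSM M[0]. In M[IL-4] it had 0, 3 and 2 counts with Veh, 425, 496 and 498 counts with HC3 and 135, 179 and 130 counts with RSM. Every inhibitor library lay above every Veh library, and HC3 above RSM at both polarizations. At equal depth the count ratio in M[0] was 195 for HC3 (95% counting interval 76.0 to 718) and 33.9 for RSM (13 to 126). In M[IL-4] it was 282 for HC3 (121 to 870) and 83.6 for RSM (35.6 to 259). In M[0] the fitted log2 fold change was 7.48 for HC3 (FDR 4.83e-12) and 4.96 for RSM (FDR 3.22e-08). In M[IL-4] it was 8.04 for HC3 (FDR 9.87e-13) and 6.29 for RSM (FDR 1.18e-10). These ratios rest on 4 and 5 counts in the Veh groups, so that their size is known only to within the intervals. Mean levels were 14.5 ± 1.39 CPM (SD, n = 3) in HC3 M[0] and 26.3 ± 1.91 CPM in HC3 M[IL-4], against 2.53 ± 0.31 and 7.81 ± 1.58 CPM with RSM.

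Ffar2 lies in a cluster with its relatives Ffar3 and Ffar1, which were not raised to a testable level. Over all 18 libraries Ffar3 had 1 count, in HC3 M[0]. Ffar1 had 8 counts, with 2 in each inhibitor group and 0 in both Veh groups, too few to test. Of 6 annotated genes within 50000 bases of Ffar2, 2 were tested, namely Cd22, whose log2 fold change lay between -0.37 and 0.26 in the 4 comparisons, and Dmkn, which was called lower with HC3 in M[0] (-3.21, 29 counts with Veh and 3 with HC3). Neither was called higher. The patterns most like that of Ffar2 were those of Rhot1 (r = 0.991), a mitochondrial GTPase, and Tollip (r = 0.982), an inhibitor of Toll-like receptor signalling.

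Gpr84, at low levels throughout, was called higher with HC3 and not with RSM. It was at 1.88, 1.41 and 1.34 CPM in Veh M[0], 3.96, 3.94 and 3.74 CPM in HC3 M[0] and 2.56, 2.04 and 1.95 CPM in RSM M[0]. The rise with HC3 was 2.50-fold (log2 fold change 1.32 ± 0.25 SE, FDR 0.000276), and the RSM difference was 0.50 ± 0.26 (FDR 0.138, 95% interval -0.05 to 1.04). In M[IL-4] its values were 0.646, 0.755 and 0.448 CPM with Veh, 2.66, 1.60 and 1.97 CPM with HC3 and 0.866, 0.700 and 1.33 CPM with RSM. HC3 raised it 3.35-fold (1.74 ± 0.30, FDR 0.00011), and RSM overlapped Veh (0.64 ± 0.32, FDR 0.125). An antisense gene, Gm49482, covers 39.5% of the exon length of Gpr84, and it had 0 counts in every library, though without a stated strand setting reads of the pair cannot be told apart.

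Gpr35 (chr1:92950865-92986391, plus strand) stayed under the fold threshold in every comparison over all replicates. It was at 1.77, 2.94 and 2.63 CPM in Veh M[0], 3.42, 4.51 and 4.16 CPM in HC3 M[0] and 3.68, 4.39 and 4.77 CPM in RSM M[0], with both inhibitor groups above Veh. The log2 fold change was 0.72 ± 0.27 (SE, FDR 0.0345) with HC3, with an FDR of 0.0639 to 0.173 when any 1 replicate was left out, and 0.81 ± 0.26 (FDR 0.0197) with RSM, with an FDR of 0.167 without replicate 3. In M[IL-4] its means were 1.31 ± 0.39 CPM (SD, n = 3) with Veh, 2.16 ± 0.83 CPM with HC3 and 2.38 ± 0.48 CPM with RSM. The RSM libraries lay above Veh (0.86 ± 0.30, FDR 0.0273, but 0.129 without replicate 1 and 0.208 without replicate 3) and the HC3 libraries overlapped it (0.72 ± 0.30, FDR 0.0675, and 0.045 with the replicate block within polarization). The HC3 value rested on replicate 1, at 0.15 without it (FDR 0.716). Without replicate 2 both differences passed the fold threshold, at 1.07 for HC3 and 1.22 for RSM. One of its 2 promoter windows holds an AP-1 match, 184 bases before a RefSeq start that lies inside the gene coordinates.

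IL-4 itself moved several of these receptors. With Veh, 1 member rose and 3 fell in M[IL-4] against M[0], where 2.83% of tested genes were called higher and 3.83% lower. The falls include Fpr1 and Fpr2, which passed the count filter through M[0] libraries alone, so the number that fell is not independent of that filter. Adora2b rose 3.62-fold (log2 fold change 1.86 ± 0.20 SE, FDR 7.65e-07). Gpr84 fell 2.49-fold (-1.32 ± 0.31, FDR 0.00269). The formyl peptide receptors fell to the limit of detection, Fpr1 from 38 to 3 counts over 3 libraries (12.7-fold fewer at equal depth, 95% counting interval 4.02 to 64.1, FDR 0.00383) and Fpr2 from 52 to 2 counts (26.0-fold fewer, 6.84 to 220, FDR 0.000465). The Fpr1 call was lost without replicate 1 (FDR 0.0744). Short of the fold threshold, C5ar1 was 1.87-fold lower with IL-4 (-0.91 ± 0.06, FDR 1.19e-09), Gpr35 1.86-fold lower (-0.90 ± 0.30, FDR 0.0275, but 0.0606 without replicate 2 and 0.205 without replicate 3) and P2ry6 1.29-fold higher (0.36 ± 0.06, FDR 0.000188). Ffar2 had 4 counts in Veh M[0] and 5 in Veh M[IL-4], a ratio of 1.25 with a counting interval of 0.269 to 6.31.

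In the presence of HC3, IL-4 raised 1 member, Adora2b (log2 fold change 1.09 ± 0.20 SE, FDR 0.000616), where 1.82% of tested genes were called higher, and lowered none, where 2.14% were called lower. In edgeR 4 members lay lower there at an unadjusted p under 0.05 and 3 at an FDR under 0.05, and DESeq2 also called 1 member in all. C5ar1 was lower (-0.59 ± 0.06, FDR 1.01e-06) and P2ry6 higher (0.85 ± 0.06, FDR 2.4e-08), short of the fold threshold. Gpr84 (-0.90 ± 0.24, FDR 0.0168) and Gpr35 (-0.90 ± 0.27, FDR 0.0292) also lay lower. Their FDRs were over 0.05 without replicate 2 and without replicate 3. With RSM, 2 members rose with IL-4 and 3 fell, against 2.45% and 1.81% of tested genes. Fpr1 and Fpr2 are again among the falls, with the same tie to the filter. Adora2b rose 2.73-fold (1.45 ± 0.18, FDR 8.48e-06) and Ffar2 3.08-fold (1.62 ± 0.21, FDR 1.05e-05). Fpr1 went from 109 to 8 counts (13.5-fold fewer at equal depth, 95% counting interval 6.64 to 32.2, FDR 0.000369) and Fpr2 from 38 to 2 counts (18.9-fold fewer, 4.88 to 162, FDR 0.0031). Gpr84 fell 2.25-fold (-1.17 ± 0.27, FDR 0.00504). The Fpr2 call was lost without replicate 1 (FDR 0.0694) and without replicate 3 (FDR 0.132), and the Gpr84 call without replicate 1 (FDR 0.103) and without replicate 2 (FDR 0.0508). With HC3 the rise of Ffar2 with IL-4 was 1.81-fold (0.85 ± 0.17, FDR 0.00169), with an FDR of 0.162 without replicate 3.

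Whether polarization altered the effect of an inhibitor was tested as an interaction. No member was called in either interaction by edgeR or by DESeq2, where 1.24% of tested genes were called for HC3 and 2.14% for RSM, while 4 members for HC3 and 3 for RSM had an unadjusted p under 0.05. With a replicate block within each polarization the number of all genes called for the HC3 interaction was 288, against 186 without it. At an FDR under 0.05 with no fold threshold, 3 members passed for each inhibitor, C5ar1, C3ar1 and P2ry6, against 6.48% and 9.19% of tested genes. Adora2b passed too for HC3 with the replicate block within polarization (-0.77, FDR 0.0388), against an FDR of 0.12 without it. For C3ar1 the effect of HC3 was less negative in M[IL-4] by 0.76 ± 0.10 on the log2 scale (FDR 0.000208) and that of RSM by 0.88 ± 0.10 (FDR 2.47e-05). IL-4 thus went with a lower C3ar1 level with Veh (-0.37 ± 0.07, FDR 0.00076) and a higher one with HC3 (0.39 ± 0.07, FDR 0.00108) and with RSM (0.51 ± 0.07, FDR 5.25e-05), though with HC3 the FDR was 0.0933 without replicate 3. P2ry6 differed by 0.48 ± 0.09 for HC3 (FDR 0.00263) and 0.51 ± 0.09 for RSM (FDR 0.000952), and C5ar1 by 0.32 ± 0.08 (FDR 0.0277) and 0.37 ± 0.08 (FDR 0.00692). Without replicate 3 the FDR of the HC3 interaction was 0.0698 for C3ar1, 0.0598 for P2ry6 and 0.379 for C5ar1, and that of the RSM interaction was 0.254 for C5ar1. The C5ar1 interaction with HC3 also had an FDR of 0.129 without replicate 2. The interaction of Ffar2 rests on the 4 and 5 counts of the Veh groups, with an interval of -1.57 to 2.68 for HC3 and -0.80 to 3.44 for RSM.

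Set directly against each other, at their different doses, HC3 and RSM differed in 2 members in M[0] and 4 in M[IL-4]. In M[0], Ffar2 was higher with HC3 (log2 fold change 2.52 ± 0.20 SE, FDR 7.13e-08), where 1.61% of tested genes were called higher. Fpr1 was lower, with 2 counts against 109 (54.4-fold fewer at equal depth, 95% counting interval 14.7 to 455, FDR 9.74e-05), where 1.44% were called lower. Fpr2 was not called, at -2.03 ± 0.67 (FDR 0.0528), but it passed with the replicate block (-1.98, FDR 0.0389) and with the block within polarization (-1.98, FDR 0.0289). C5ar1 was 1.94-fold lower with HC3 than with RSM (-0.95 ± 0.06, FDR 3.77e-09) and P2ry6 1.69-fold lower (-0.76 ± 0.06, FDR 1.76e-07). Adora2b lay lower with HC3 than with RSM (-0.81 ± 0.20, FDR 0.00888) and Gpr84 higher (0.83 ± 0.24, FDR 0.0267), both short of a call. The FDR of Adora2b was 0.122 without replicate 1 and 0.0624 without replicate 3, and that of Gpr84 was 0.0945 to 0.229 when any 1 replicate was left out.

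In M[IL-4], 2 members were called higher with HC3 than with RSM and 2 lower, where 1.21% and 1.59% of tested genes were. Ffar2 was higher by 1.75 ± 0.18 on the log2 scale (FDR 1.42e-06) and Gpr84 by 1.10 ± 0.28 (FDR 0.0109). Adora2b was lower by 1.16 ± 0.18 in size (log2 fold change -1.16, FDR 0.000154). C5ar1, at -1.01 ± 0.06 (FDR 1.33e-09), lay at the fold threshold and was -0.97 without replicate 1 and -0.99 without replicate 3. The Gpr84 call was lost without replicate 1 (FDR 0.206), without replicate 2 (FDR 0.0505) and when the fit held the 2 groups alone (FDR 0.0727). P2ry2 and Gpr35 did not pass at either polarization, with intervals of -0.43 to 0.07 and -0.62 to 0.44 in M[0] and -0.42 to 0.09 and -0.73 to 0.44 in M[IL-4].

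Of 53 related receptors for chemoattractants, nucleotides, adenosine, fatty acids and lysolipids, 33 were tested. With HC3 in M[0], 11 were called lower (33.3%, against 6.11% of all tested genes) and 2 higher (6.06%, against 5.93%), with a median log2 fold change of -0.74 against 0.02 for all genes. For RSM in M[0] the counts were 9 lower (27.3%, against 6.51%) and 2 higher (6.06%, against 5.05%), with a median of -0.41. HC3 in M[IL-4] gave 7 lower (21.2%, against 5.53%) and 2 higher (6.06%, against 4.72%), with a median of -0.36. RSM in M[IL-4] gave 5 lower (15.2%, against 6.00%) and 6 higher (18.2%, against 5.05%), with a median of -0.19. The shares called higher were thus near that of all genes in 3 of the 4 comparisons. Gpr34, a lysophosphatidylserine receptor, went from 9.74 ± 0.76 CPM (SD, n = 3) in Veh M[0] to 0.675 ± 0.434 CPM with HC3 (log2 fold change -3.83, FDR 1.11e-07) and 0.403 ± 0.139 CPM with RSM (-4.58, FDR 3.05e-08), and it was called lower with both in M[IL-4] too (-2.78 and -3.90). Cmklr1, the chemerin receptor, fell with HC3 in M[0] (-2.28, FDR 4.34e-07) and in M[IL-4] (-2.55, FDR 1.2e-07). P2ry12, the ADP receptor of microglia and platelets, fell with HC3 in M[0] (-1.94, FDR 7.87e-05) and was called higher in RSM M[IL-4] (1.74, FDR 0.00019), as was P2ry13 (1.84, FDR 0.00182), which was also called higher in RSM M[0] (1.03, FDR 0.0285).

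Gpr183, which senses oxysterols, fell with RSM in M[0] from 32.3 ± 0.190 to 7.07 ± 1.65 CPM (log2 fold change -2.19, FDR 5.1e-11), and Lpar5, a receptor for lysophosphatidic acid, fell there too (-1.51, FDR 5.54e-09). Both also fell with HC3 in M[0], Gpr183 by 1.77 (FDR 6e-10) and Lpar5 by 1.54 (FDR 3.54e-09), and Lpar5 with HC3 in M[IL-4] by 1.16 (FDR 3.57e-07). Cysltr1 and Ltb4r1, leukotriene receptors, fell with HC3 in M[IL-4] (-1.50, FDR 4.86e-08, and -1.33, FDR 0.00717), and Cysltr1 also with HC3 in M[0] (-1.69, FDR 6.49e-09). S1pr1, a receptor for sphingosine 1-phosphate, rose with RSM in M[IL-4] from 45.7 ± 2.99 to 127 ± 6.66 CPM (1.47, FDR 1.93e-12).

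**Figure D4:**
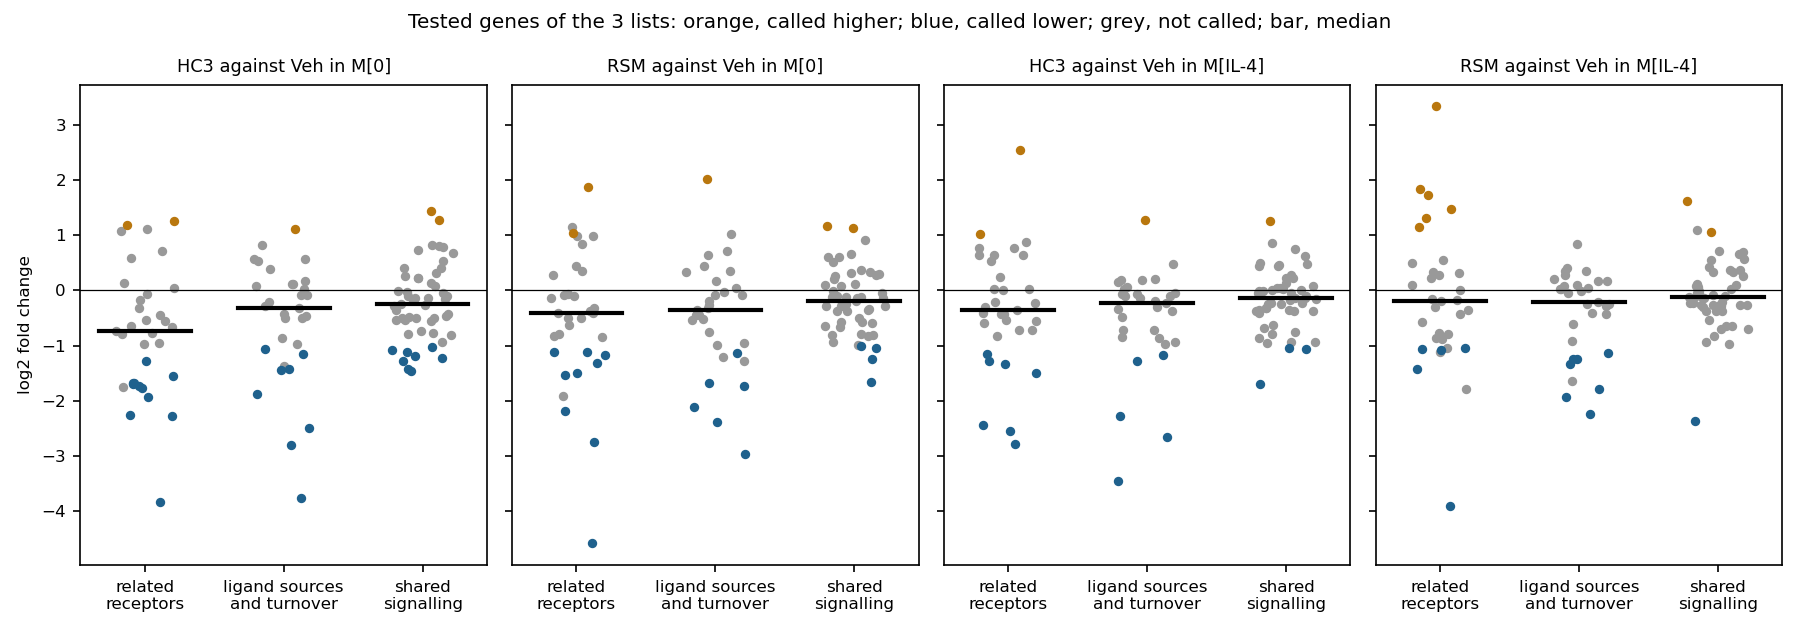
Log2 fold change of the tested genes of 3 lists, 33 related receptors, 31 genes of ligand sources and turnover and 51 of shared signalling, for inhibitor against Veh in 4 comparisons; each point is a gene and the bar is the list's median. The medians lie below 0 in all 4 panels for all 3 lists, between -0.74 and -0.13, and the lowest points of the middle list include the C1q genes.

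Among genes that make, cleave or clear the ligands, 31 of 39 were tested. With HC3, 8 were called lower in M[0] (25.8%, against 6.11% of all tested genes; median log2 fold change of the list -0.33) and 5 in M[IL-4] (16.1%, against 5.53%; median -0.23). With RSM, 6 were called lower in M[0] (19.4%, against 6.51%; median -0.36) and 7 in M[IL-4] (22.6%, against 6.00%; median -0.21). A single gene (3.23%) was called higher with HC3 in M[0], with RSM in M[0] and with HC3 in M[IL-4], under the shares of 5.93%, 5.05% and 4.72% of all genes. The 3 chains of C1q, which starts the classical complement pathway upstream of C3a and C5a, led the list in both HC3 comparisons, and Enpp2 led it with RSM in M[0]. C1qa went from 542 ± 123 CPM (SD, n = 3) in Veh M[0] to 40.1 ± 10.1 CPM with HC3 (-3.76, FDR 1.39e-11) and 104 ± 9.36 CPM with RSM (-2.39, FDR 3.38e-09). C1qb fell by 2.80 and 2.11 on the log2 scale in the same comparisons (FDR 1.77e-13 and 7.67e-12). C1qc, from 1195 ± 209 CPM, fell by 2.49 with HC3 (FDR 1.12e-11). In M[IL-4] C1qa fell by 3.45 with HC3 (FDR 7.19e-11) and by 2.23 with RSM (FDR 9.06e-09). Enpp2, the secreted enzyme autotaxin, which makes lysophosphatidic acid from lysophosphatidylcholine, fell with RSM from 17.3 ± 5.86 to 2.20 ± 0.756 CPM in M[0] (-2.97, FDR 2.88e-06) and from 34.8 ± 11.1 to 9.07 ± 3.07 CPM in M[IL-4] (-1.94, FDR 5.42e-05), and with HC3 in M[0] by 1.05 (FDR 0.0112).

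In the shared signalling list of G protein subunits, effectors, kinases, arrestins and RGS proteins, 51 of 53 symbols were in the annotation and all 51 were tested. With HC3 in M[0], 8 were called lower (15.7%, against 6.11% of all tested genes) and 2 higher (3.92%, against 5.93%), with a median log2 fold change of -0.25. In the other comparisons the shares lay near or under those of all genes. They were 4 lower (7.84%, against 6.51%) and 2 higher (3.92%, against 5.05%) for RSM in M[0], with a median of -0.20. For HC3 in M[IL-4] they were 3 lower (5.88%, against 5.53%) and 1 higher (1.96%, against 4.72%), with a median of -0.14, and for RSM in M[IL-4] 1 lower (1.96%, against 6.00%) and 2 higher (3.92%, against 5.05%), with a median of -0.13. Rgs2, which restrains Gq signalling, fell with RSM from 188 ± 13.2 to 59.6 ± 6.40 CPM in M[0] (-1.66, FDR 9.48e-09) and by 2.37 in M[IL-4] (FDR 1.69e-10), and with HC3 by 1.18 in M[0] (FDR 6.51e-07) and 1.69 in M[IL-4] (FDR 1.02e-08). Prex1, a Rac exchange factor driven by Gβγ, fell with HC3 in M[0] from 426 ± 12.5 to 155 ± 9.69 CPM (-1.46, FDR 1.83e-11), and with RSM by 1.05 (FDR 1.7e-09). Rgs16 rose with HC3 in M[0] (1.44, FDR 2.97e-06) and Pde4b, a cAMP phosphodiesterase, fell there (-1.42, FDR 5.97e-05). Pde4d, its relative, was called higher in all 4 comparisons, with HC3 and RSM in M[0] (1.28, FDR 0.000115, and 1.17, FDR 0.000322) and in M[IL-4] (1.25, FDR 0.000318, and 1.62, FDR 1.49e-05). Grk3, a receptor kinase, fell in M[0] with RSM (-1.25, FDR 2.81e-06) and with HC3 (-1.09, FDR 1.29e-05). Adcy7, an adenylyl cyclase, fell with HC3 in M[IL-4] (-1.07, FDR 7.94e-11) and in M[0] (-1.11, FDR 2.7e-11).

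Further nearest patterns were those of Alox5 (r = 0.886) and Notch2 (r = 0.880) for Fpr1, Tle3 (r = 0.967) and Sept8 (r = 0.956) for P2ry2, Cped1 (r = 0.921) and Atp11a (r = 0.919) for Gpr84, and Dhrs1 (r = 0.939) and Pdlim2 (r = 0.936) for Gpr35. Each r is over the same 18 libraries, and for Fpr1 most of these libraries held fewer than 20 counts of the gene. Among the members themselves, C3ar1 and P2ry6 were the most alike (r = 0.888), and P2ry6 and Gpr84 the most opposed (r = -0.897), followed by C5ar1 and Ffar2 (r = -0.868).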

How the data were processed

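Per the labels, poly-T selected mRNA of 18 libraries was sequenced. Per the paper's methods and the submitters' processing notes, reads were trimmed (fastp), aligned to GRCm38 (STAR) and marked for duplicates (Picard), and the authors made the deposited counts with featureCounts of Subread; versions, annotation release and strand setting are not given in the sources used here. The deposited values are raw counts per Ensembl gene, and 0 columns were left unused. Symbols and exon lengths came from GENCODE vM21 and promoter windows from RefSeq. Groups were taken from sample titles.

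Genes reaching 10 counts in 2 or more libraries (14979) entered the quasi-likelihood test (glmQLFTest) of edgeR 4.0.16 under R 4.3.3, with TMM scaling, 1 coefficient per group and no block, and with Benjamini-Hochberg FDRs over all of them. CPM are scaled by TMM, and log2 CPM for correlations used a prior count of 2. The test was tried on simulated data. Members and lists were chosen with earlier results of these data known, and list genes were named when among the 3 largest called changes of a comparison, with a mean of 50 counts in the higher group and no overlap with Veh. Alternatives were DESeq2 1.42.0, other filters and scalings, replicate blocks, the compared groups alone and leaving out each replicate.

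Titles number the replicates 1 to 3, and the labels do not say that a number marks a mouse. Same-numbered libraries deviated together in all 18 pairs within a polarization (r = 0.110 to 0.372, all over 0.1), as did 1 of 36 different-numbered pairs. Across polarizations, 12 of 27 same-numbered pairs and 10 of 54 different-numbered pairs were over 0.1. The numbers were thus read as pairing within a polarization. The main fit does not use this pairing, and the replicate blocks among the alternatives do. The genes nearest in pattern to Fpr2 are not reported here.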

Additional observations from a re-analysis of the deposited data

Results flagged for a closer look

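The effect of an inhibitor differed between M[0] and M[IL-4], by the interaction term of the edgeR fit at an FDR under 0.05, for the 3 abundant receptors. For HC3 the difference in log2 fold change (M[IL-4] minus M[0]) was 0.319 for C5ar1 (FDR 0.0277), 0.757 for C3ar1 (FDR 0.000208) and 0.483 for P2ry6 (FDR 0.00263). For RSM it was 0.373 for C5ar1 (FDR 0.00692), 0.876 for C3ar1 (FDR 2.47e-05) and 0.511 for P2ry6 (FDR 0.000952). All 6 are positive, so the effect of each inhibitor on these transcripts was less negative in M[IL-4], and both inhibitors share the same Veh libraries. The shift was not particular to these receptors. Over the 10 macrophage markers the median of the same term was 0.552 for HC3 and 0.606 for RSM. Over the 33 related receptors tested it was 0.384 and 0.306. Over the 10 alternatives the C3ar1 term lay between 0.740 and 0.803 for HC3. Leaving out replicate 3 took the 3 HC3 terms and the C5ar1 term for RSM over an FDR of 0.05, as did leaving out replicate 2 for the HC3 term of C5ar1. Replicates were left out by number in all groups together, and single libraries were not tested as outliers.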

How the results depend on the processing

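Of the members' log2 fold changes under 10 alternatives, 969 kept their direction and side of the call threshold, 13 gained and 18 lost a call, and 9 reversed. The cause of each change was not tested. All reversals were of uncalled values. With 1 replicate left out, Gpr35 in HC3 against RSM in M[IL-4] ranged from -0.42 to 0.10, Gpr35 in the HC3 interaction from -0.46 to 0.31, and in the RSM interaction P2ry2 from -0.080 to 0.22, Gpr35 from -0.14 to 0.29 and Gpr84 from -0.31 to 0.50. Gpr35 in the HC3 interaction was also 0.0035 with the replicate block, 0.0027 with no count filter and 0.0047 when scaled by library size only, against -0.005. Leaving out each replicate moved the number of members called from 4 to between 2 and 4 for RSM in M[0], from 1 to between 1 and 2 for RSM in M[IL-4], from 1 to between 1 and 3 for IL-4 with HC3, and from 4 to between 2 and 3 for HC3 against RSM in M[IL-4]. The number of all genes called became 344 to 552 from 594 for IL-4 with HC3, 419 to 550 from 638 for IL-4 with RSM, 257 to 408 from 456 and 218 to 377 from 419 for HC3 against RSM in M[0] and M[IL-4], 41 to 145 from 186 for the HC3 interaction and 131 to 279 from 321 for the RSM interaction. The replicate block within polarization gave 288 for the HC3 interaction, and for the members the replicate block changed no call at the fold threshold other than that of Fpr2 in HC3 against RSM in M[0] (-1.98). Depth limited Fpr1, Fpr2 and the Veh level of Ffar2.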
